A study of Rattus norvegicus with 12 samples.

Results

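The comparison sets liver microRNA levels of rats given caffeine and dextromethorphan together (CAF+DEX) against those of rats given vehicle (Control). It covers 269 of the 444 features in the deposited table, those with a value above 0 in 3 or more of the 6 libraries compared. Of the 269, 256 are named as microRNA genes, and 230 were above 0 in all 6 libraries. Of the features left out, 50 were above 0 in 1 or 2 of the 6 libraries and 125 were at 0 in all 6. The 7 features that just met the rule, with 3 libraries above 0, had a median of 0.83 reads per library, and the 20 that just missed it, with 2 libraries, had 0.33.

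Male Sprague-Dawley rats (Jcl:SD), an outbred stock, were 7 weeks old when dosing began and were dosed by mouth on 5 days in a row. The CAF+DEX rats received caffeine at 120 mg/kg and dextromethorphan hydrobromide monohydrate at 100 mg/kg, and the Control rats received the solvent, sterile distilled water, alone. Liver was taken 1 h after the last dose. Each group had 5 rats and 3 deposited libraries, and which rat each library came from is not stated. The p-values therefore measure only the spread between these libraries, which may in part be technical. The libraries carry the numbers 1, 2 and 5 for CAF+DEX and 1, 3 and 4 for Control in the column headers. Groups given caffeine alone (CAF) or dextromethorphan alone (DEX) at the same doses, with 3 libraries each, entered the model to estimate the spread.

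MicroRNAs are short RNAs, cut from hairpin precursors, that guide Argonaute proteins to messenger RNAs and lower their stability or translation. Target choice rests mainly on the seed, bases 2 to 8 of the mature strand, so that microRNAs with the same seed share many targets. Many microRNA genes lie in clusters that are transcribed together, and each member is then processed and stabilised on its own. Caffeine blocks adenosine receptors and is cleared in liver by CYP1A2, whereas dextromethorphan, a cough suppressant that acts on NMDA and sigma-1 receptors, is cleared by CYP2D enzymes and CYP3A enzymes.

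The sequences shown first are the mature strands of the microRNAs on which the results turn, from RefSeq (build GRCr8), 5′ to 3′ with the seed in capitals. Of the 269 features, 233 matched a RefSeq mature sequence by symbol, and Mir322-2 and Mir29b-3 were matched by microRNA name. The table gives 1 value per precursor gene, so the 2 arms of a precursor cannot be told apart in the values. For Mir142 both arms are shown, since both are known to be abundant in blood cells.
miR-29b-3p: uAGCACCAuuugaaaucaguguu
miR-146a-5p: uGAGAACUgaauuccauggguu
miR-142-5p: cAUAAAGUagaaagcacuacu
miR-142-3p: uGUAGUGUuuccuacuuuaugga
miR-34a-5p: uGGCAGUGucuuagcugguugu
miR-130b-3p: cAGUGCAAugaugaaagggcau
miR-190b-5p: uGAUAUGUuugauauuagguu
The next 4 strands are shown together because miR-322-5p, miR-15b-5p and miR-16-5p hold 1 seed while the values of their genes lay on different sides of Control, and miR-503-5p, a cluster neighbour of miR-322-5p, holds a related seed.
miR-322-5p: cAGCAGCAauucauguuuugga
miR-15b-5p: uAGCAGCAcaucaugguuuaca
miR-16-5p: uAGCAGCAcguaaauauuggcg
miR-503-5p: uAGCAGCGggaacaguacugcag
The last pair shares another seed and comes from 2 related clusters that are compared further on.
miR-20a-5p: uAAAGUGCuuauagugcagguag
miR-106b-5p: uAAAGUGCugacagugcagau

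The 6 libraries held 3103016 to 3418568 recovered reads, and microRNA genes took at least 99.94% of them. Mir192, a microRNA abundant in hepatocytes, held 15.7% of the reads of Control on average. Mir126a, the only listed gene of the endothelial microRNA miR-126, averaged 15.5 reads, too few to follow endothelial cells, and had -0.21 (SE 0.31). MiR-126 is known as an abundant microRNA of endothelium, and whether this feature captures its reads was not tested. Over the 136 features averaging at least 100 reads, libraries of the same group differed by a root mean square of 0.193 to 0.339 on the log2 scale and libraries of different groups by 0.214 to 0.328, so the groups did not separate as wholes.

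With both drugs, no microRNA passed the test, and most abundant microRNAs stayed close to Control. The features with the smallest p were the genes of miR-29b, a microRNA known for targeting collagen transcripts, which were higher in CAF+DEX by 0.25 and 0.24 on the log2 scale. Mir146a and Mir142, microRNAs of immune cells, were lower by mean, with log2 fold changes of -0.35 and -0.38. Mir34a, a p53 target, was lower at -0.51, and Mir802, a liver microRNA tied to glucose handling, was higher at 0.28. These are log2 fold changes of FPKM plus a pseudocount of 3.8 FPKM, which understate the change of rare features.

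In limma, 0 of 269 features had a Benjamini-Hochberg adjusted p under 0.05 (0.0% called). An unadjusted p under 0.05 was found in 29 features, 10.8% of those tested, where 13.5 are expected by chance. Over all 269, 128 were higher by mean (47.6%) and 141 lower (52.4%). Of the 29, 14 were higher (5.2%) and 15 lower (5.58%) in CAF+DEX. Counting genes with the same mature sequence once, the 29 features were 26 signals. With each library centred on its median the number was 10, of which 2 were higher and 8 lower, and without Control library 3 it was 16. Limma-voom on the recovered reads gave 0 calls and 28 features with an unadjusted p under 0.05. In 43 features (16%) the groups did not overlap, 21 with all CAF+DEX libraries above all Control libraries (7.81%) and 22 with all below (8.18%).

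The intervals show how large a change these data leave room for. Among the 136 features averaging at least 100 reads, the 95% interval of the log2 fold change lay within -1 and 1 for 134 and within -0.5 and 0.5 for 112. In these abundant features the median size of the change was 0.09, and the fold changes ran from -0.51 for Mir34a to 0.39 for Mir450a1. Over all 269 features the intervals of 188 lay within -1 and 1, and 50 features averaged at most 3 reads in both groups and are given no fold. The widest interval among features with an unadjusted p under 0.05 belonged to Mir184, chosen after its values were seen. It stood at 81.0, 520.5 and 539.9 FPKM in Control and 28.9, 119.8 and 81.2 FPKM in CAF+DEX, so Control library 1 lay among the CAF+DEX libraries. Its log2 fold change was -2.05 (SE 0.88).

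**Figure D1:**
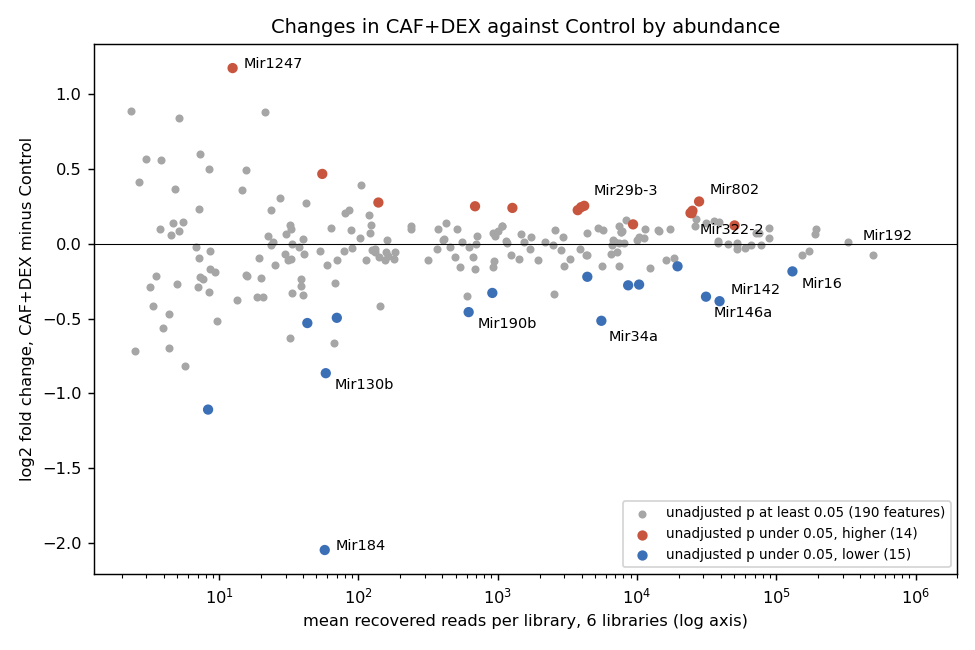
Log2 fold change of CAF+DEX against Control (vertical axis) by the mean recovered reads per library over the 6 libraries (horizontal log axis), 1 point per feature, without the 50 features that averaged at most 3 reads in both groups. Coloured points had an unadjusted limma p under 0.05, 14 higher and 15 lower, and at 100 reads or more all changes lie between -0.51 and 0.39.

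The 10 most abundant microRNAs of Control, by mean FPKM, are well counted. Mir192 had a mean of 1423300 ± 57717 FPKM (SD, n = 3) with vehicle and 1354300 ± 97809 FPKM with both drugs, a log2 fold change of -0.07 (95% interval -0.21 to 0.06). Over the alternatives run, Mir192 ranged from -0.13 to 0.00. Its cluster neighbour Mir194-2, likewise a hepatocyte microRNA, had -0.01 (-0.14 to 0.13). Mir101-2 had 0.01 (-0.12 to 0.14) and Mir101a 0.04 (-0.10 to 0.17). Mirlet7f2, of the let-7 family that restrains growth, had 0.07 (-0.05 to 0.18), and Mir30a had 0.07 (-0.08 to 0.22).

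Mir148a, which targets transcripts of the drug-sensing receptor PXR among others, had -0.08 (95% interval -0.26 to 0.10). Mir26b stood at 685803, 740451 and 726487 FPKM in CAF+DEX and 657500, 672966 and 684295 FPKM in Control, with no overlap, and its log2 fold change of 0.09 had an interval of -0.01 to 0.20. With quantile normalization Mir26b, Mirlet7f2 and Mir30a changed sign, to -0.06, -0.02 and -0.03, and Mir148a to 0.10. Mir21, a microRNA of growth and fibrosis, was uneven within CAF+DEX at 698358, 525614 and 487422 FPKM against 590426, 558662 and 604660 FPKM in Control. CAF+DEX library 1 was the highest of the 6 and libraries 2 and 5 the lowest, and the log2 fold change was -0.05 (SE 0.11), with -0.21 when CAF+DEX library 1 was left out and 0.05 when CAF+DEX library 5 was. Only Mir16 among the 10 had an interval that did not include 0, and it is described with its cluster.

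The miR-29 family lowers the transcripts of several collagens and of other matrix proteins, and its level in stellate cells is known to drop in fibrotic liver. For miR-29a and miR-29c of this family no gene was listed, so the family as a whole was not measured. The table listed the member miR-29b at 2 genes, Mir29b-3 (ENSRNOG00000035637, chromosome 13, 106570367 to 106570456, rn7) and Mir29b1 (ENSRNOG00000035463, chromosome 4, 59650986 to 59651067). They hold the mature strand miR-29b-3p in common, and their reads were in a ratio of 0.945 to 0.956 in each of the 6 libraries, so they are 1 signal. Mir29b-3 stood at 12591, 12996 and 13572 FPKM in Control and 15017, 15625 and 16027 FPKM in CAF+DEX.

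All CAF+DEX libraries lay above all Control libraries, and the spread within each group was small. The means were 13053 ± 492.6 and 15556 ± 508.1 FPKM (SD, n = 3 each), with a log2 fold change of 0.25 (SE 0.05) and a limma adjusted p = 0.0734. Mir29b1 had 0.24 (SE 0.05). Under the alternatives run, Mir29b-3 ranged from 0.23 to 0.28, and both genes passed with a pseudocount of 50 FPKM (limma adjusted p = 0.0391) and with no filter on low values (limma adjusted p = 0.0483). Over all alternatives the limma adjusted p ran from 0.0391 to 0.986, the last with median centring.

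Mir802, which is known to lower hepatocyte transcription factor transcripts in obesity, was higher by mean. It stood at 85184, 74283 and 81998 FPKM in Control and 82733, 99738 and 112992 FPKM in CAF+DEX. CAF+DEX library 1 lay within the Control range, and libraries 2 and 5 lay above it. Its log2 fold change was 0.28 (SE 0.10) with a limma adjusted p = 0.333, and 0.18 without CAF+DEX library 5. Among 11 tested features of a list of lipid and glucose regulators, 7 were higher, against 47.6% of all features. An unadjusted p under 0.05 was found for 3, against 10.8% of all features, these being Mir802 and both genes of miR-29b, which are 1 signal. The list had a median of 0.10 against -0.01 for all features. With quantile normalization 6 of the 11 were higher. Of 7 hepatocyte microRNAs with 8 genes, 4 genes were higher and 4 lower with a median of 0.00, and 6 of the 8 were higher with quantile normalization or median centring.

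On the lower side, the smallest p-values belonged to microRNAs of immune cells. Mir146a, which restrains signalling from Toll-like receptors (ENSRNOG00000035466, chromosome 10, 27848516 to 27848610), stood at 105799, 129528 and 105763 FPKM in Control and 80688, 98002 and 87801 FPKM in CAF+DEX. Each CAF+DEX library was lower than each Control library, and Control library 3 was the highest. The log2 fold change was -0.35 (SE 0.09), with a limma adjusted p = 0.245, and -0.26 without Control library 3. With quantile normalization it was -0.45 and passed (limma adjusted p = 0.0428; 0.0428 to 0.798 over the alternatives). Mir146b, which shares the seed of Mir146a but is not on the leukocyte list, averaged 315.3 reads. It overlapped between the groups and had -0.11 (SE 0.135).

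Mir142, found across blood cell lineages (ENSRNOG00000035633, chromosome 10, 72557857 to 72557967), stood at 121229, 128941 and 118051 FPKM in Control and 83044, 102689 and 97311 FPKM in CAF+DEX. The groups did not overlap, with CAF+DEX library 1 the lowest, and the log2 fold change was -0.38 (SE 0.12) with a limma adjusted p = 0.333. Mir342, another leukocyte microRNA, stood at 3000, 3414 and 3092 FPKM against 2662, 2628 and 2283 FPKM, likewise without overlap, at -0.33 (SE 0.12). The other 3 listed leukocyte microRNAs overlapped between the groups. Mir150, of mature lymphocytes, had -0.15 (SE 0.18), Mir223, of granulocytes and monocytes, had -0.15 (SE 0.10), and Mir155, induced on immune activation, had -0.10 (SE 0.17). Without CAF+DEX library 5 the value was -0.05 for Mir150 and -0.07 for Mir223, and without CAF+DEX library 2 it was -0.34 and -0.25.

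Mir155 was highest in a CAF+DEX library, at 1091, 733.4 and 677.6 FPKM against 896.9, 832.6 and 902.3 FPKM in Control, and its fold change was -0.31 without CAF+DEX library 1 and 0.03 without CAF+DEX library 5. All 6 members of the leukocyte list were thus lower by mean, where 52.4% of all features were, and 3 had an unadjusted p under 0.05, where 10.8% of all features did. The list median of -0.24 stood against -0.01 over all features. The list took 2.65, 2.99 and 2.63% of reads in the Control libraries and 1.96, 2.4 and 2.17% in the CAF+DEX libraries. Most of this share was Mir142 (on average 1.36% in Control and 1.05% in CAF+DEX) and Mir146a (1.08% and 0.84%). The share thus mainly repeats the values of these genes. In such bulk samples fewer cells of a type and less RNA per cell cannot be told apart.

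Erythroid microRNAs, which report red cells held in the tissue, lay on the same side. The 3 of them took 0.121, 0.108 and 0.101% of reads in Control and 0.0847, 0.094 and 0.087% in CAF+DEX, without overlap. Mir144 had -0.34 (SE 0.20), its cluster partner Mir451a had -0.15 (SE 0.19) and rno-mir-486 had -0.41 (SE 0.22). The list median was -0.34, with 0 of 3 at an unadjusted p under 0.05. The part that blood content had in the leukocyte values was not tested.

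**Figure D2:**
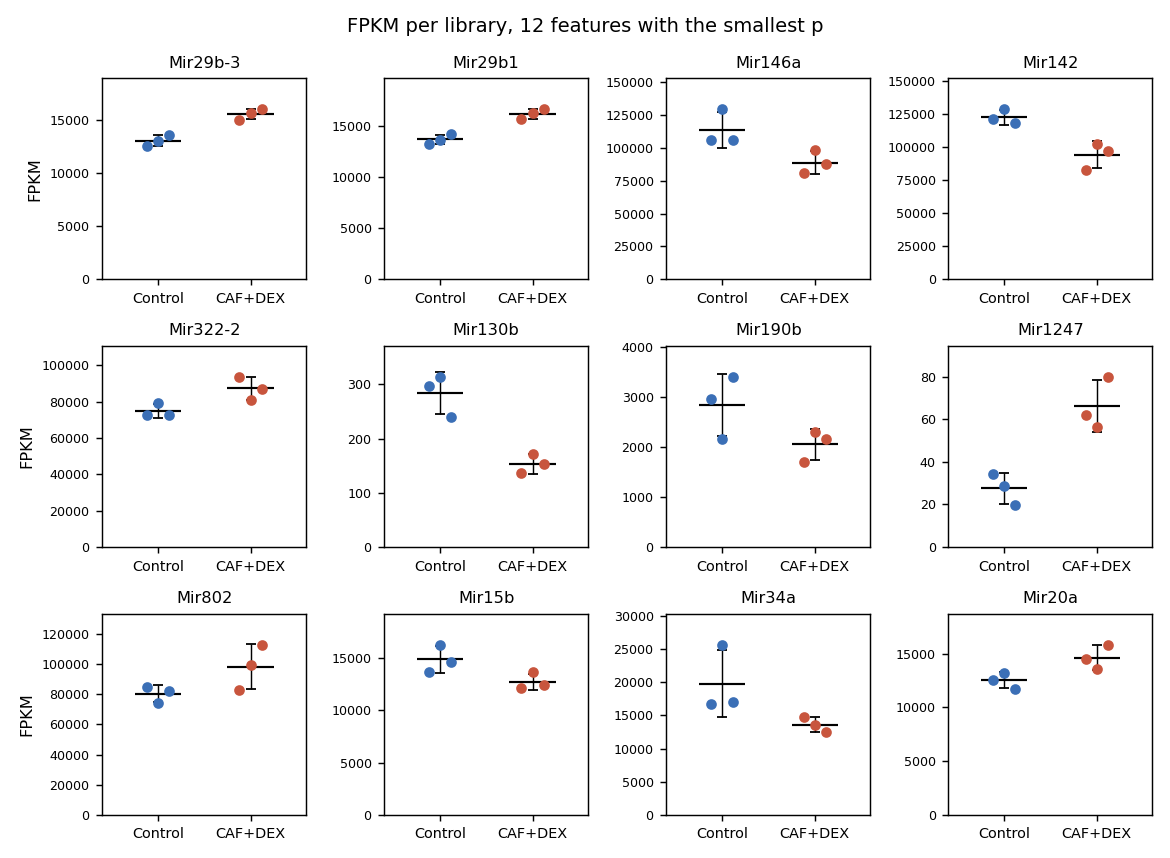
FPKM in each library (points, vertical axes starting at 0) for the 12 features with the smallest p, with the mean (line) and SD (bar) of 3 Control and 3 CAF+DEX libraries. The groups do not overlap in 10 of the 12 panels, and over all features they did not overlap in 43 of 269 (16%). They overlap in Mir190b and Mir802. The 12 were chosen by p in these same libraries, so this count is no separate support.

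The miR-34 and miR-449 family shares the seed GGCAGUG, and its miR-34 members act downstream of p53 to restrain proliferation. Mir34a (chromosome 5, 160533002 to 160533103) was by far its most abundant member and stood at 16652, 25676 and 17058 FPKM in Control and 14828, 13497 and 12490 FPKM in CAF+DEX. The groups did not overlap, and Control library 3 was the highest. The log2 fold change was -0.51 (SE 0.18) with a limma adjusted p = 0.333, and it shrank to -0.31 without Control library 3.

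The family's other 3 tested genes were rare. Mir34c averaged 67.8 reads and had -0.26 (SE 0.19), Mir34b averaged 20.5 reads and had -0.36 (SE 0.29), and Mir449a averaged 33.5 reads and had -0.33 (SE 0.26). Thus 4 of 4 tested members were lower, where 52.4% of all features were, with a median of -0.34 and 1 at an unadjusted p under 0.05. Each of the 3 rare ones overlapped between the groups. Without Control library 1, Mir34c had -0.14, Mir34b -0.20 and Mir449a -0.54, without Control library 4 Mir34c had -0.45 and Mir34b -0.63, and without Control library 3 Mir449a had -0.21.

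Mir130b and Mir190b were lower as well. Mir130b, whose seed AGUGCAA it shares with Mir130a and Mir301b, stood at 296.6, 313.9 and 239.7 FPKM in Control and 135.7, 172.5 and 152.4 FPKM in CAF+DEX, averaging 75.7 and 41 reads. The groups did not overlap, and the log2 fold change was -0.87 (SE 0.29) with a limma adjusted p = 0.333. Its cluster neighbour Mir301b, at 18.6 reads, had -0.35 (SE 0.23) and overlapped. The abundant members of the family were near Control, with 0.04 (SE 0.08) for Mir130a at 11210 reads and 0.01 (SE 0.08) for Mir301a at 2186 reads.

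Mir190b stood at 2966, 2170 and 3409 FPKM in Control and 1700, 2299 and 2167 FPKM in CAF+DEX. Control library 3 fell within the CAF+DEX range and the other 2 Control libraries lay above it, and the log2 fold change was -0.46 (SE 0.15). Mir190, which shares the seed of Mir190b and averaged 7243 reads, was near Control at -0.06 (SE 0.055). Mir1247 was rare and higher, at 34.2, 28.5 and 19.6 FPKM in Control and 62.0, 56.3 and 79.8 FPKM in CAF+DEX, which are averages of 7.33 and 17.7 reads. The groups did not overlap, and the log2 fold change of 1.17 (SE 0.40) had a limma adjusted p = 0.333 and was 0.58 with a pseudocount of 50 FPKM.

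Some genes with a common seed lay on different sides of Control by mean, and none of them passed the test. The seed AGCAGCA, found in 5 tested features with a RefSeq match, marks the miR-15 and miR-16 family, which lowers cyclins and other cell cycle transcripts. Of these 5 features, 3 were higher and 2 lower, with a median of 0.02. Mir15b and Mir16 are neighbours on chromosome 2 (153245200 to 153245297 and 153245349 to 153245443). Mir15b stood at 13664, 16300 and 14682 FPKM in Control and 12191, 13640 and 12406 FPKM in CAF+DEX, without overlap, at -0.22 (SE 0.08). Mir16, among the most abundant microRNAs, stood at 438148, 473522 and 439634 FPKM against 440907, 381454 and 368908 FPKM. CAF+DEX library 1 lay within the Control range and libraries 2 and 5 below it, at -0.19 (SE 0.07), and with quantile normalization the fold change was 0.00.

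On chromosome X (132801380 to 132806688), Mir322-2, with the same seed, lies in a cluster with Mir503, Mir351, Mir542, Mir450b-1 and Mir450a1. Mir322-2 stood at 72739, 79336 and 72496 FPKM in Control and 93648, 80993 and 87234 FPKM in CAF+DEX. All CAF+DEX libraries were higher than all Control libraries, at 0.22 (SE 0.07) with a limma adjusted p = 0.333. Mir503, named after its values were seen, stood at 5267, 5463 and 4503 FPKM against 6119, 5904 and 5897 FPKM, also without overlap, at 0.24 (SE 0.10).

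All 6 genes of this X cluster were higher by mean, where 47.6% of all features were, with a median of 0.22. An unadjusted p under 0.05 was found for 2 of them, where 10.8% of all features had one. The others had 0.39 (SE 0.20) for Mir450a1, 0.22 (SE 0.16) for Mir450b-1, 0.07 (SE 0.07) for Mir542 and 0.05 (SE 0.14) for Mir351, which changed sign to -0.06 without CAF+DEX library 1 and was 0.00 without Control library 1. Without Control library 4, Mir450b-1 had 0.09 and Mir503 0.16, without Control library 1 Mir450a1 had 0.25, and without CAF+DEX library 1 Mir542 had 0.01. Another pair of the family, Mir497 and Mir195 on chromosome 10, stayed near Control at 0.02 (SE 0.08) and 0.08 (SE 0.09), and Mir15a on chromosome 15 had -0.15 (SE 0.09). The limma adjusted p was 0.333 for Mir15b, 0.358 for Mir16 and 0.398 for Mir503.

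The miR-17-92 cluster, which promotes proliferation, was compared with its paralogs. On chromosome 15 (92180629 to 92181413) 5 of 6 genes were higher, where 47.6% of all features were, with a median of 0.10. Mir20a stood at 12584, 13241 and 11753 FPKM in Control and 14533, 13551 and 15852 FPKM in CAF+DEX, without overlap, at 0.22 (SE 0.08). Mir19b1 had 0.20 (SE 0.08), and its copy Mir19b2 on chromosome X, which holds the same mature strand, had 0.20 (SE 0.08). Mir19a had 0.11 (SE 0.09). Without CAF+DEX library 5 the value was 0.11 for Mir19b1 and Mir19b2 and 0.00 for Mir19a.

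In the paralog cluster on chromosome 12 (17042932 to 17043425) 3 of 3 genes were lower, where 52.4% of all features were, with a median of -0.09. Mir25 stood at 75436, 76598 and 73983 FPKM in Control and 63821, 70517 and 69433 FPKM in CAF+DEX, without overlap, at -0.15 (SE 0.07). Mir93 and Mir106b, the genes of this cluster with the seed of Mir20a, were near Control at -0.09 (SE 0.10) and -0.03 (SE 0.15). Mir106b changed sign to 0.01 without Control library 3. Of 6 tested features with the seed AAAGUGC, 3 were higher and 3 lower, with a median of 0.03. They ran from -0.50 for Mir20b at 70 reads to 0.22 for Mir20a. Mir25 and Mir19b1 are not among the 6. Mir17 and Mir106a, both higher at 0.10, share a mature strand in RefSeq and were counted as 1 signal. Over all clusters of at least 2 features above 3 reads, 10 of 32 had every member higher and 10 every member lower. Many of these clusters hold only 2 such features, and whether the counts differ from chance was not tested.

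**Figure D3:**
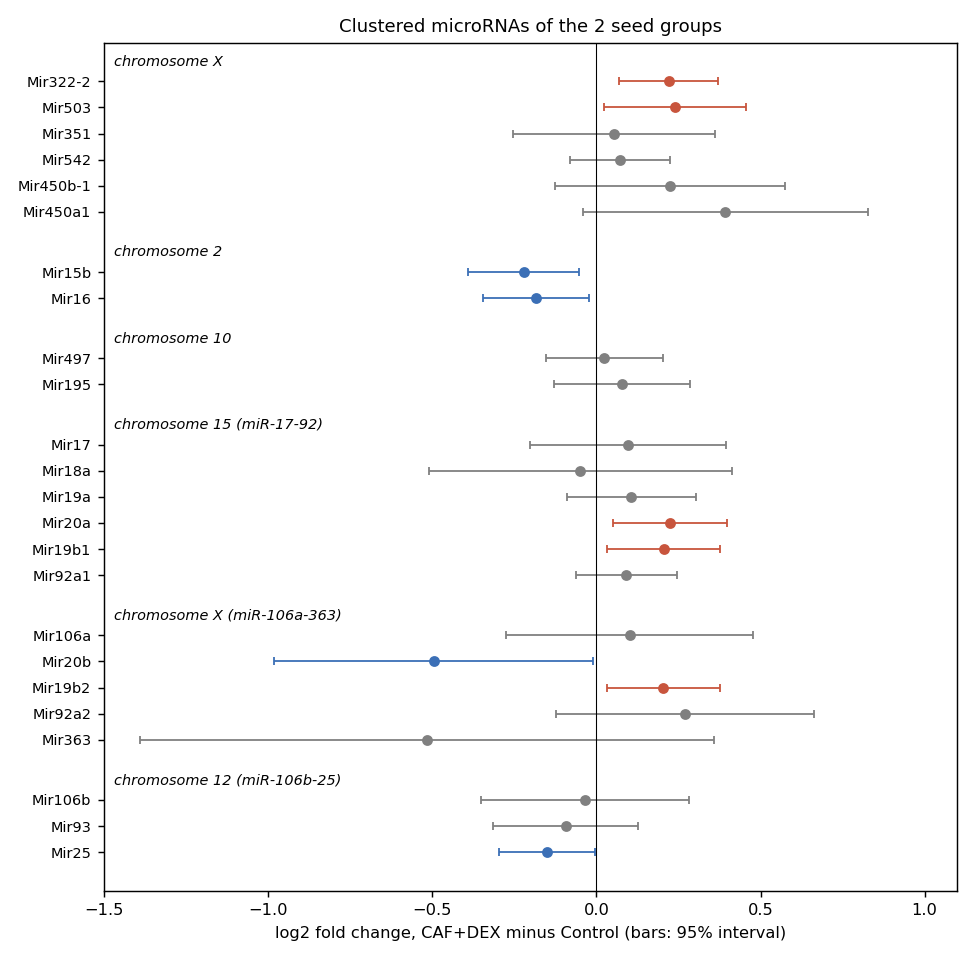
Log2 fold change of CAF+DEX against Control with its 95% interval for members of 6 microRNA clusters (rows), coloured where the unadjusted limma p was under 0.05. Mir322-2 and Mir503 on chromosome X lie above 0 and Mir15b and Mir16 on chromosome 2 below it, and Mir20a and Mir19b1 lie above 0 and Mir25 below it.

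A few other features were among the larger changes or the smaller p-values. Mir362, at 647.5, 594.0 and 545.4 FPKM in Control and 704.3, 676.6 and 782.9 FPKM in CAF+DEX, was higher without overlap at 0.28 (SE 0.12) (limma adjusted p = 0.424). The feature ENSRNOG00000066772, which the table gives no symbol, stood at 2360, 2192 and 2450 FPKM against 2744, 2811 and 2764 FPKM, also higher without overlap, at 0.25 (SE 0.09). Mir7-1 and Mir8 share the mature strand miR-7a-5p in RefSeq and were counted as 1 signal, known for its high level in endocrine cells and neurons. Both were lower without overlap, at -0.27 (SE 0.10) and -0.28 (SE 0.10). Mir26a, a regulator of glucose and lipid metabolism in hepatocytes, had 0.15 (SE 0.08), and the hepatocyte microRNA Mir22 had 0.10 (SE 0.05), both with an unadjusted p above 0.05.

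The remaining lists are given by their counts. Of 9 let-7 genes 6 were higher with a median of 0.05, whereas with quantile normalization 4 were higher and the median was 0.00. Both genes of let-7c, which share a mature strand, are in this count. Mirlet7d, at 0.13 (SE 0.06), and Mirlet7g, at 0.12 (SE 0.05), had an unadjusted p under 0.05 (10.8% of all features) and did not overlap between the groups. All 5 tested miR-30 genes were higher (47.6% of all features) with a median of 0.09 (3 of the 5 with quantile normalization), and none had an unadjusted p under 0.05. Mir30c1 and Mir30c2 share a mature strand, so the 5 genes are not 5 separate signals. In the list of microRNAs that target cytochrome P450 or nuclear receptor transcripts, 3 of 6 were higher and 3 lower with a median of 0.01 (4 of 6 higher with quantile normalization or median centring), and Mir34a, described above, was the one with an unadjusted p under 0.05. Mir152, which shares the seed of Mir148a, had 0.12 (SE 0.06). In the imprinted Dlk1-Dio3 cluster, whose microRNAs are high in fetal tissue, 12 of 15 tested genes were lower, where 52.4% of all features were. With quantile normalization 9 were lower, and with median centring 11. Of the 15, 4 averaged at most 3 reads in both groups and 0 had an unadjusted p under 0.05. The 15 had a mean of -0.30 and a median of -0.42. That median was -0.02 without CAF+DEX library 5 and -0.01 with at least 10 reads required in all 6 libraries.

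Markers of other cells did not separate the groups. Stellate and smooth muscle microRNAs took 2.4, 2.71 and 2.69% of reads in Control and 3.16, 2.86 and 2.3% in CAF+DEX, with a median fold change of 0.10 over 4 genes. Biliary epithelial microRNAs took 0.0786, 0.128 and 0.0905% and 0.0936, 0.144 and 0.0665%, striated muscle microRNAs 0.0655, 0.0345 and 0.0401% and 0.0302, 0.05 and 0.0529%, and neuron and pancreas microRNAs 0.00343, 0.00442 and 0.00464% and 0.00343, 0.00569 and 0.00372%. The ranges of the groups overlapped in each of these lists, and no member had an unadjusted p under 0.05.

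**Figure D4:**
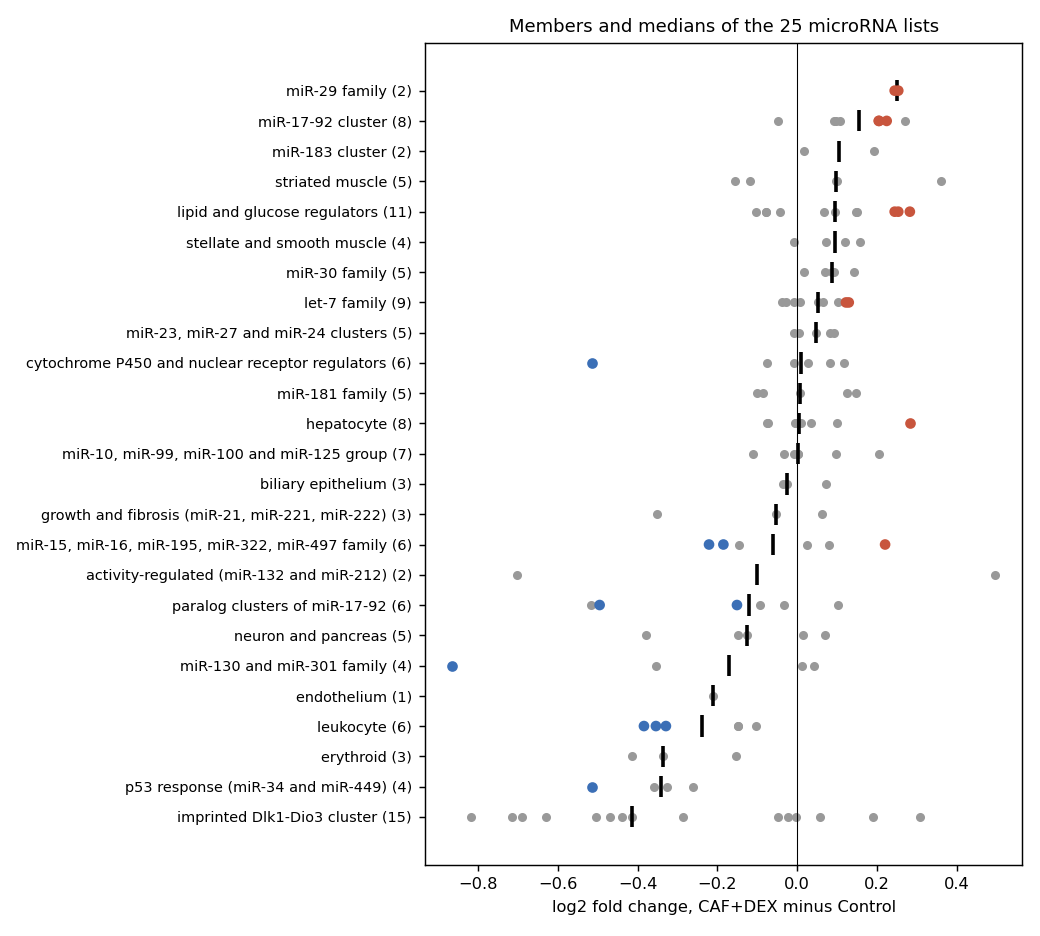
Log2 fold change of CAF+DEX against Control (horizontal axis) for the tested members of 25 lists, with the number of members in brackets and a black bar at the list median. Coloured points had an unadjusted limma p under 0.05. The list medians run from -0.42 for the imprinted cluster to 0.25 for the miR-29 family, of which only the 2 genes of miR-29b were listed.

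Set beside each drug alone, 5 of the features with the smallest p had a value near 0 under DEX, and the genes of miR-29b lay above 0 under each drug. CAF and DEX were not tested against each other. The 3 comparisons share the Control libraries, so their values are given side by side and are not independent. Mir146a had -0.49 (SE 0.09) in CAF and 0.10 (SE 0.09) in DEX, Mir142 had -0.60 (SE 0.12) and -0.08 (SE 0.12), and Mir15b had -0.24 (SE 0.08) and 0.02 (SE 0.08). Mir322-2 had 0.19 (SE 0.07) and 0.02 (SE 0.07), and Mir802 had 0.36 (SE 0.10) and 0.07 (SE 0.10). For these 5, the CAF value was on the side of CAF+DEX and the DEX value was within 0.10 of 0.

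Mir29b-3 stood higher with either drug, at 0.23 (SE 0.05) in CAF and 0.20 (SE 0.05) in DEX, next to 0.25 (SE 0.05) with both. Mir190b was lower in each, at -0.41 (SE 0.15) and -0.61 (SE 0.15), and Mir34a had -0.24 (SE 0.18) and -0.21 (SE 0.18) next to -0.51 (SE 0.18) with both. Mir20a had 0.12 (SE 0.08) in CAF and 0.23 (SE 0.08) in DEX. Mir1247 was near Control with 1 drug, at 0.03 (SE 0.40) and 0.25 (SE 0.40), and Mir130b had -0.95 (SE 0.29) and -0.36 (SE 0.29).

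In direct tests of both drugs against 1 drug, no feature passed. Of the 269 features, limma called 0 in CAF+DEX against CAF, where 15 (5.58%) had an unadjusted p under 0.05, and 0 in CAF+DEX against DEX, where 21 (7.81%) did. For Mir146a, CAF+DEX stood 0.14 (SE 0.09) above CAF and had -0.45 (SE 0.09) against DEX, with limma adjusted p-values of 0.869 and 0.119. In CAF against Control 2 features were called (0.743%), Mir146a and Mir142, and in DEX against Control 0, with 38 (14.1%) and 13 (4.83%) at an unadjusted p under 0.05.

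**Figure D5:**
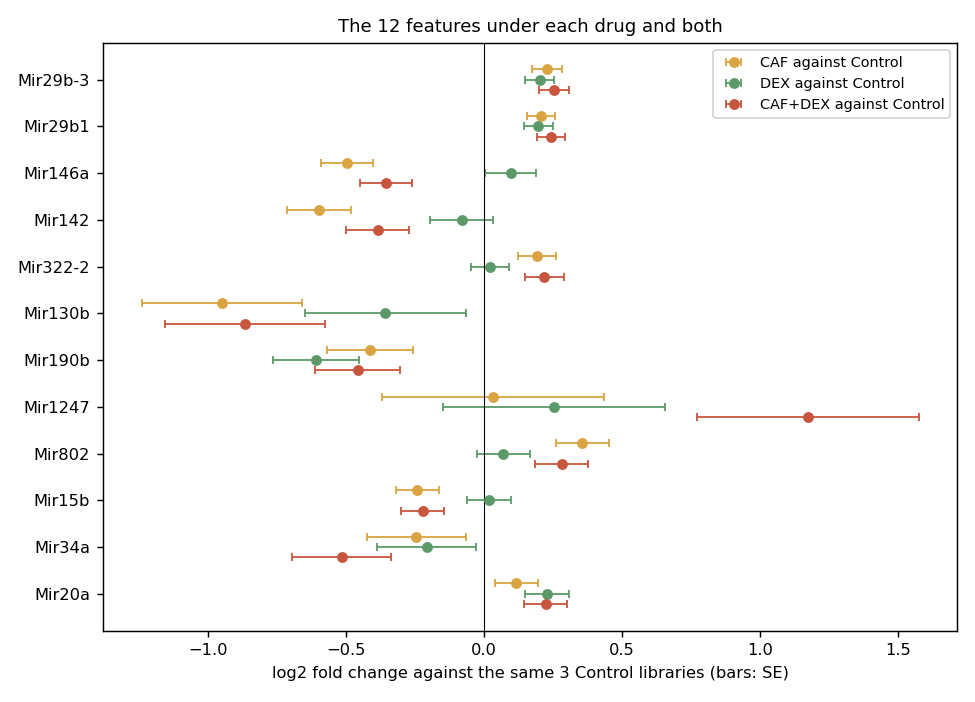
Log2 fold change with its standard error for the 12 features with the smallest p in CAF+DEX against Control (rows), under CAF, DEX and CAF+DEX, each against the same 3 Control libraries. Mir146a and Mir142 lie below 0 in CAF and CAF+DEX and within 0.10 of 0 in DEX, and Mir29b-3 and Mir29b1 lie above 0 in all 3.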

How the data were processed

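The authors deposited FPKM values per feature. The submitters' processing notes name build rn7, cutadapt 3.7, STAR 2.7.11b, featureCounts and Subread 2.0.6, without settings. The sources used here do not state whether molecular indices were collapsed. FPKM times length summed to 1000000 in each library, so levels are relative to the listed features and a change in 1 abundant microRNA shifts the others. Read values were recovered from FPKM, length and a library total. They were multiples of 0.01 to within 2.5e-09, and reads need not be independent molecules.

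The 269 features were fitted by limma-trend (R 4.3.3, limma 3.58.1) on log2(FPKM + 3.8) with 4 group means over 12 libraries, where 3.8 FPKM is the 10th percentile of values above 0. P-values were Benjamini-Hochberg adjusted over the 269 features with a threshold of 0.05, and the test was checked on simulated data. Named features are the 12 with the smallest p, the 5 highest and 5 lowest changes among those averaging at least 100 reads, the 10 most abundant in Control and up to 4 members per list by p. Mir503 and the other members of its cluster, Mir7-1, Mir8, Mir184, Mir155, Mir150, Mir195, Mir497, Mir106b, Mir19a and Mir20b, where outside this rule, were chosen after their values were seen. The same holds for Mir146b and Mir190. The members and lists were chosen with earlier results of these data known.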

Additional observations from a re-analysis of the deposited data

How the results depend on the processing

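Under 20 alternatives, 12 of which left out 1 library each, 61 of the features named with a fold were followed. Of these, 46 never took the opposite sign, and among the 46, Mir192 and Mir16 reached 0.00 at their highest value. Settings that left out a CAF or DEX library, fitted only the 6 libraries compared or changed the filter could not change a fold. They therefore do not test its sign, and many of the 61 features were chosen by p in these same libraries. The number past the threshold, 0, became 2 with a pseudocount of 50 FPKM and 2 with no filter on low values, both times the genes of miR-29b, and 1 with quantile normalization, Mir146a. It was 0 with a pseudocount of 1 FPKM, with at least 10 reads required in all 6 libraries, in a fit of only these 6 libraries, with median centring, with limma-voom and without any 1 library (range 0 to 0). The number with an unadjusted p under 0.05, 29, became 10 with median centring and ranged from 16 without Control library 3 to 34 without CAF library 1; the cause was not tested. Quantile normalization reversed Mirlet7f2 (-0.021), Mir26b (-0.058), Mir30a (-0.029) and Mir148a (0.097), and median centring reversed Mir194-2 (0.008). Leaving out 1 library gave both signs for Mir101-2 (-0.034 to 0.041), Mir21 (-0.207 to 0.052), Mir101a (-0.012 to 0.079), Mir194-2 (-0.063 to 0.049), Mir155 (-0.313 to 0.029), Mir351 (-0.057 to 0.157), Mir19a (-0.003 to 0.174), Mir106b (-0.076 to 0.015), Mir130a (-0.035 to 0.107), Mir301a (-0.059 to 0.071) and Mir497 (-0.009 to 0.086). Over the 25 lists and all alternatives, 10 medians moved by more than the spread between libraries. No paired analysis was possible because the libraries of the groups compared share only the number 1 in the column headers, so the planned fit with a replicate block was not run. Having 3 libraries per group limits the precision, and the median SE was 0.09 among features averaging at least 100 reads and 0.20 over all features.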
